A study of Mus musculus with 12 samples.

Results

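The secreted and membrane-bound proteinases that cut the extracellular matrix, and the proteins that hold them in check, were followed in the inflamed mouse colon with and without Pck1 in its epithelium. The set was defined by gene symbol: all Mmp genes (matrix metalloproteinases), numbered Adamts and Adamtsl genes (a disintegrin and metalloproteinase with thrombospondin motifs, and its like-named relatives), and Timp1 to Timp4 (tissue inhibitors of metalloproteinases). It holds 51 of the 21899 genes in the deposited table, namely 23 Mmp, 19 Adamts, 5 Adamtsl and 4 Timp genes. Colon tissue RNA was sequenced in 12 libraries, 6 from mice with Pck1 deleted in intestinal epithelial cells (genotype label CKO, here knockout) and 6 from littermate controls (label WT, here control). All 12 came from mice given 2.5% DSS (dextran sulfate sodium, a chemical used to provoke colitis) for 7 days. None of the sources used here names the Cre driver, sex, age or strain, and no group without DSS was analysed here. The labels number the libraries without saying that each is a separate animal, so p-values measure the spread between these libraries. In such bulk RNA a lower value can come from fewer cells of a type or from less RNA per cell, which cannot be told apart.

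Matrix metalloproteinases are zinc enzymes made as inactive proforms. Once a propeptide is removed they cleave collagens, proteoglycans, other proteinases and cytokines. ADAMTS proteinases cleave large proteoglycans such as versican and aggrecan or trim procollagens, while ADAMTS-like proteins lack the catalytic domain and bind microfibrils. TIMPs occupy the active site of metalloproteinases. In the colon, mesenchymal cells, infiltrating leukocytes and wound-edge epithelium are all known sources, and stromelysins and collagenases are widely used readouts of ulceration and repair.

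In the mouse genome 10 Mmp genes follow each other on chromosome 9 with no other protein-coding gene between them: Mmp13, Mmp12, Mmp1b, Mmp3, Mmp1a, Mmp10, Mmp8, Mmp27, Mmp20 and Mmp7. This cluster is shown first because it holds the 4 largest log2 fold changes among the tested genes of the set. AP-1, the Fos and Jun dimer, is a textbook activator of several MMP promoters and binds the motif TGANTCA, which reads the same on both strands. RefSeq promoter windows (GRCm38.p6, from 250 bases before to 50 after the start) were at hand for 36 of the 51 genes. Mmp2, Mmp9, Mmp19 and Adamts4 were among the genes without a window, so they were not searched. The motif was present in 8 of the 10 cluster genes and in 0 of the other 26, against 8.97% of all 27025 genes with a window and 7.81% of all windows. A gene counted as holding the motif if any of its windows did, and Mmp12 and Mmp7 each also had a window without it. Mmp1a and Mmp1b are close copies, so their matches are not independent. Of the cluster genes with the motif, Mmp1a, Mmp1b and Mmp20 had too few counts to be tested. The 100 bases before the start are given for the 3 most abundant cluster genes, for Mmp7, which holds the motif, and for Mmp8, which does not. All lie on the plus strand and capitals mark the motif.
Mmp3 (chr9:7445722-7445821): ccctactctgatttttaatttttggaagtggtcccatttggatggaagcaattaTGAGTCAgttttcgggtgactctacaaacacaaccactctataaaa
Mmp10 (chr9:7502242-7502341): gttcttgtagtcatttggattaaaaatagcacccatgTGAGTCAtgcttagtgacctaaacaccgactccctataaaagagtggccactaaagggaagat
Mmp13 (chr9:7272414-7272513): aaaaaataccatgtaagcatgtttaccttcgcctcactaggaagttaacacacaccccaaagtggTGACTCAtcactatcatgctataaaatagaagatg
Mmp7 (chr9:7691990-7692089): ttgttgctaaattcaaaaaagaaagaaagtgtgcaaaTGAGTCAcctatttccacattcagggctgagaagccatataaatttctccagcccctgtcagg
Mmp8 (chr9:7558329-7558428): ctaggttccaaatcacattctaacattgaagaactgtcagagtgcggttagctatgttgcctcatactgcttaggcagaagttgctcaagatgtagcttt
The motif began 46 bases before the start in Mmp3, 63 in Mmp10, 35 in Mmp13 and 63 in Mmp7, the last counted from the more distal of its RefSeq starts. A match describes the letters of the window and shows no binding.

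Total counts per library lay between 15348192 and 19138507. Levels are given as CPM, counts scaled by library size after TMM normalization, and levels of different genes are compared only as TPM, which also divides by gene length. Pck1 was between 2.28 and 7.32 CPM in the knockouts and between 34.5 and 84.7 CPM in the controls, so every library matched its genotype label. Nevertheless 2 libraries stood apart in many of the genes described here: control replicate 4 lay near the knockouts and knockout replicate 4 near the controls. Control replicate 6 also held much acinar pancreas RNA, with a summed level of 24900 CPM over 8 marker genes against 35.5 to 3130 CPM elsewhere. Epithelial markers were abundant in every library, with 9 genes summing to between 10900 and 15400 CPM in the controls and between 10200 and 12400 CPM in the knockouts, and 5 of the 9 were lower in the knockout at an unadjusted edgeR p under 0.05. Endothelial markers summed to between 194 and 298 CPM in the controls and between 271 and 553 CPM in the knockouts, with 5 of 6 higher at that p. Enteric neuron and glia markers summed to between 27.4 and 49.7 CPM in the controls and between 36.7 and 70.6 CPM in the knockouts, with 3 of 6 higher. Smooth muscle markers summed to between 1450 and 3320 CPM in the controls, lowest in replicate 4, and between 1400 and 2320 CPM in the knockouts, highest in replicate 4, with 2 of 6 lower. Over all tested genes 13.1% were higher and 9.48% lower at that p. None of these lists had a gene at 0 throughout, and their part in the results was not tested.

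Of the 51 genes, 42 had enough counts to be tested. Log2 fold changes (knockout minus control) were above 0 for 36 of the 42 and below 0 for 6, with a median of 0.68, against a median of -0.03 over all 14393 tested genes. With Benjamini-Hochberg adjustment over all genes, the quasi-likelihood test of edgeR called 0 of the 42 at a threshold of 0.05, where it called 0.0556% of all tested genes. At an unadjusted edgeR p under 0.05, 26 were higher in the knockout and 0 lower, where 13.1% of all tested genes were higher and 9.48% lower. These shares are also the background for counts at that p in the groups and lists below. The members crowded just above the threshold, and 16 were higher at an adjusted p under 0.1, as were 6.59% of all genes. DESeq2 called 19 of the 40 members it gave an adjusted p, all higher, against 7.98% of all genes, and limma voom called Mmp19 and Adamts9, against 0.208%. The authors' deposited table, for which no test is named, lists 19 of the 51 as higher and 1 as lower at an FDR under 0.05, against 4.65% of all genes listed as higher and 1.7% as lower.

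**Figure D1:**
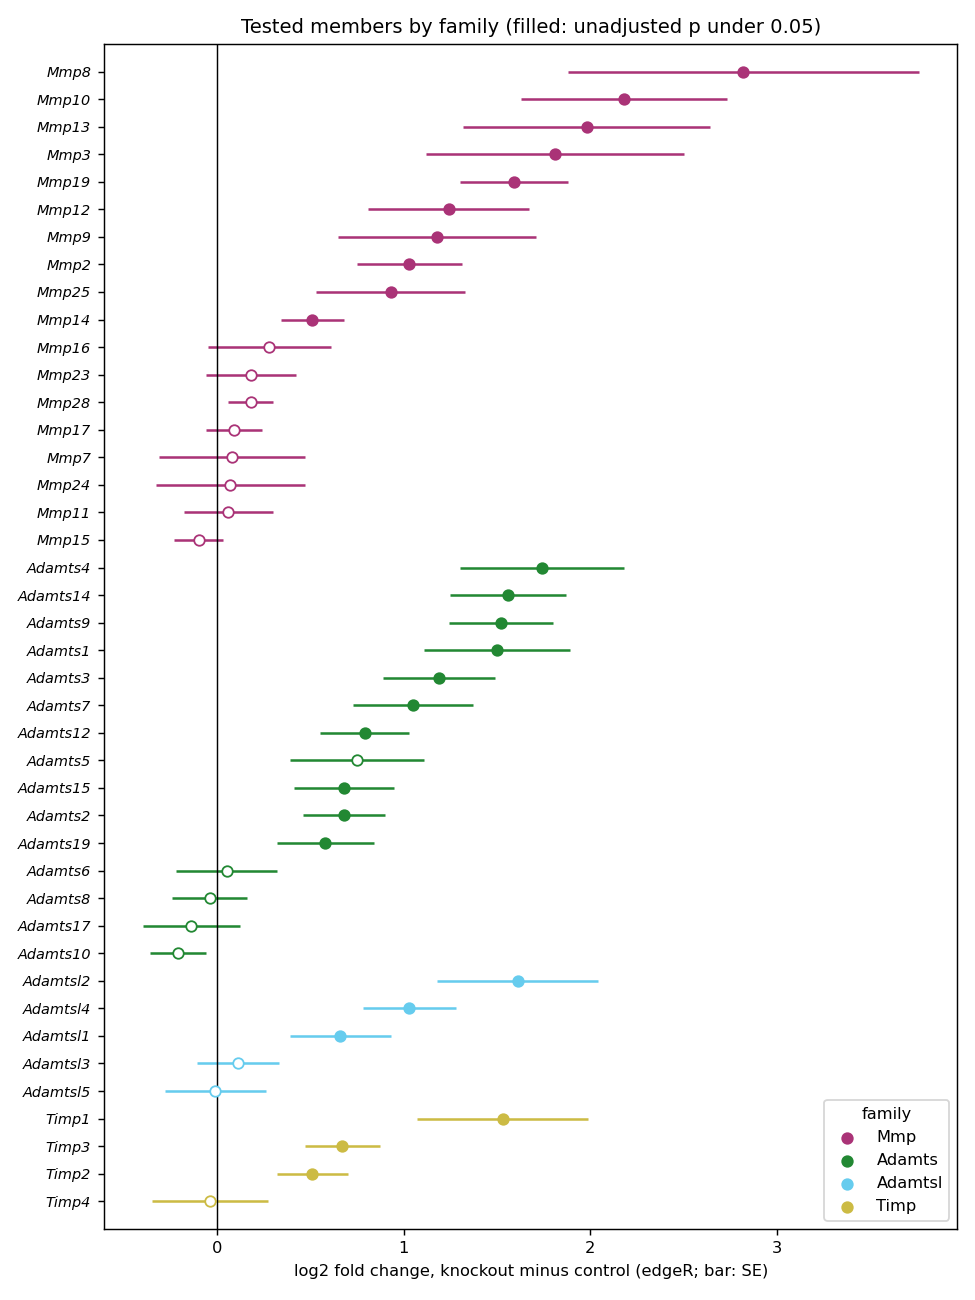
Log2 fold change (knockout minus control, edgeR, x axis) with its SE for the 42 tested genes, grouped and coloured by family (n = 6 libraries per group). Filled points have an unadjusted p under 0.05. Mmp8 lies farthest right at 2.82 with an SE of 0.94, and no gene with a negative value is filled.

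The edgeR count rested on single libraries. Without control replicate 4 the same test called 15 members higher, without knockout replicate 4 it called 14, and without control replicate 6 it called 4, against backgrounds of 5.03%, 6.02% and 1.88% of genes called higher. Leaving out any of the other 9 libraries gave 0 calls, with 21 to 25 members higher at an unadjusted p under 0.05. Control replicate 4 or 6 was the highest control for all 26 genes higher at that p with all 12 libraries. Knockout replicate 4 was the lowest knockout for 17 of them. Leaving out a gene's highest control or lowest knockout widens its difference by construction, so calls made that way are no added support. With both replicates numbered 4 left out, a setting chosen after seeing the data, 22 were called, against 8.4% of genes. Under other scalings and tests of all 12 libraries, members called higher numbered 2 with DESeq2's size factors in edgeR (0.229% of all genes), 2 with robust fitting (0.222%), 4 with library size only (1.6%), 9 with limma-trend on log2(TPM + 1) (2.47%) and 10 on log2(TPM + 0.1) (2.54%). They numbered 0 with upper quartile scaling (0.0278%), with no low-count filter (0.022%) and with a mean CPM of at least 1 (0.0287%). With the replicate number as a covariate they also numbered 0 (0%). In that setting Mmp19, Adamts9, Adamts4, Mmp2, Timp1 and Timp3 each had an edgeR adjusted p of 0.259, and Adamts1 one of 0.264.

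Mmp19, which cleaves basement membrane proteins, had the smallest p of the set. Its level was lowest at 12.2, median 14.6 and highest at 26.0 CPM in the controls, and 31.4, 45.2 and 95.0 CPM in the knockouts. The groups did not overlap, and the log2 fold change was 1.59 with an SE of 0.29 (edgeR adjusted p = 0.0512). Adamts14, a procollagen N-proteinase, was the other gene without overlap, at 1.06, 1.29 and 2.03 CPM in the controls and 2.34, 3.60 and 8.17 CPM in the knockouts (log2 fold change 1.56, SE 0.31, edgeR adjusted p = 0.0522). Both genes passed edgeR's adjusted threshold without control replicate 4, without knockout replicate 4 or without control replicate 6, with an adjusted p of at most 0.0493. They passed it with no other single library left out. The edgeR adjusted p was 0.123 for both without control replicate 1 and 0.133 for both without control replicate 2. With the replicate number as a covariate it was 0.259 for both. These 2 of 42 compare with 0.882% of all tested genes in which all 6 knockouts lay above all 6 controls. No member lay below all controls in every knockout, where 0.639% of all tested genes did.

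Mmp10, Mmp3 and Mmp13 had higher medians in the knockout and varied widely within each genotype. Mmp10 (stromelysin-2), which activates other proMMPs and is known from wound-edge epithelium, stood at 27.2, 45.4 and 255 CPM in the controls (lowest, median, highest) and 137, 381 and 736 CPM in the knockouts. Only knockout replicate 4 lay below the highest control, replicate 4, and the log2 fold change was 2.18 with an SE of 0.55 (edgeR adjusted p = 0.0594). Mmp3 (stromelysin-1), a fibroblast product that cleaves many matrix proteins, was at 11, 44.1 and 336 CPM in the controls and 98.1, 322 and 625 CPM in the knockouts. Its controls spanned 30.5-fold, and the log2 fold change of 1.81 had an SE of 0.69 (edgeR adjusted p = 0.143). Mmp13 (collagenase-3) ran from 18.8 through 50.9 to 378 CPM in the controls and from 134 through 375 to 675 CPM in the knockouts. Control replicate 4 thus reached the knockout median, and the log2 fold change was 1.98 with an SE of 0.66 (edgeR adjusted p = 0.104). Mmp7 (matrilysin), best known from Paneth cells and tumour epithelium, showed no such shift. It was at 2.53, 3.54 and 10 CPM in the controls and 2.05, 4.31 and 7.61 CPM in the knockouts, a log2 fold change of 0.08 with an SE of 0.39. Mmp11 (stromelysin-3) was at 0.06 with an SE of 0.24. Without control replicate 4 the log2 fold changes were 2.83 for Mmp10, 2.74 for Mmp3 and 2.99 for Mmp13, with edgeR adjusted p of 0.0145, 0.0221 and 0.0146. Without knockout replicate 4 they were 2.37, 2.01 and 2.16, with edgeR adjusted p of 0.0273, 0.0855 and 0.0609. For each of these genes the libraries left out were the highest control and the lowest knockout, so the larger values follow from that choice. With control replicate 1 left out, the edgeR adjusted p was 0.127 for Mmp10, 0.24 for Mmp3 and 0.18 for Mmp13. The log2 fold change of Mmp7 lay between -0.10 and 0.50 with single libraries left out.

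**Figure D2:**
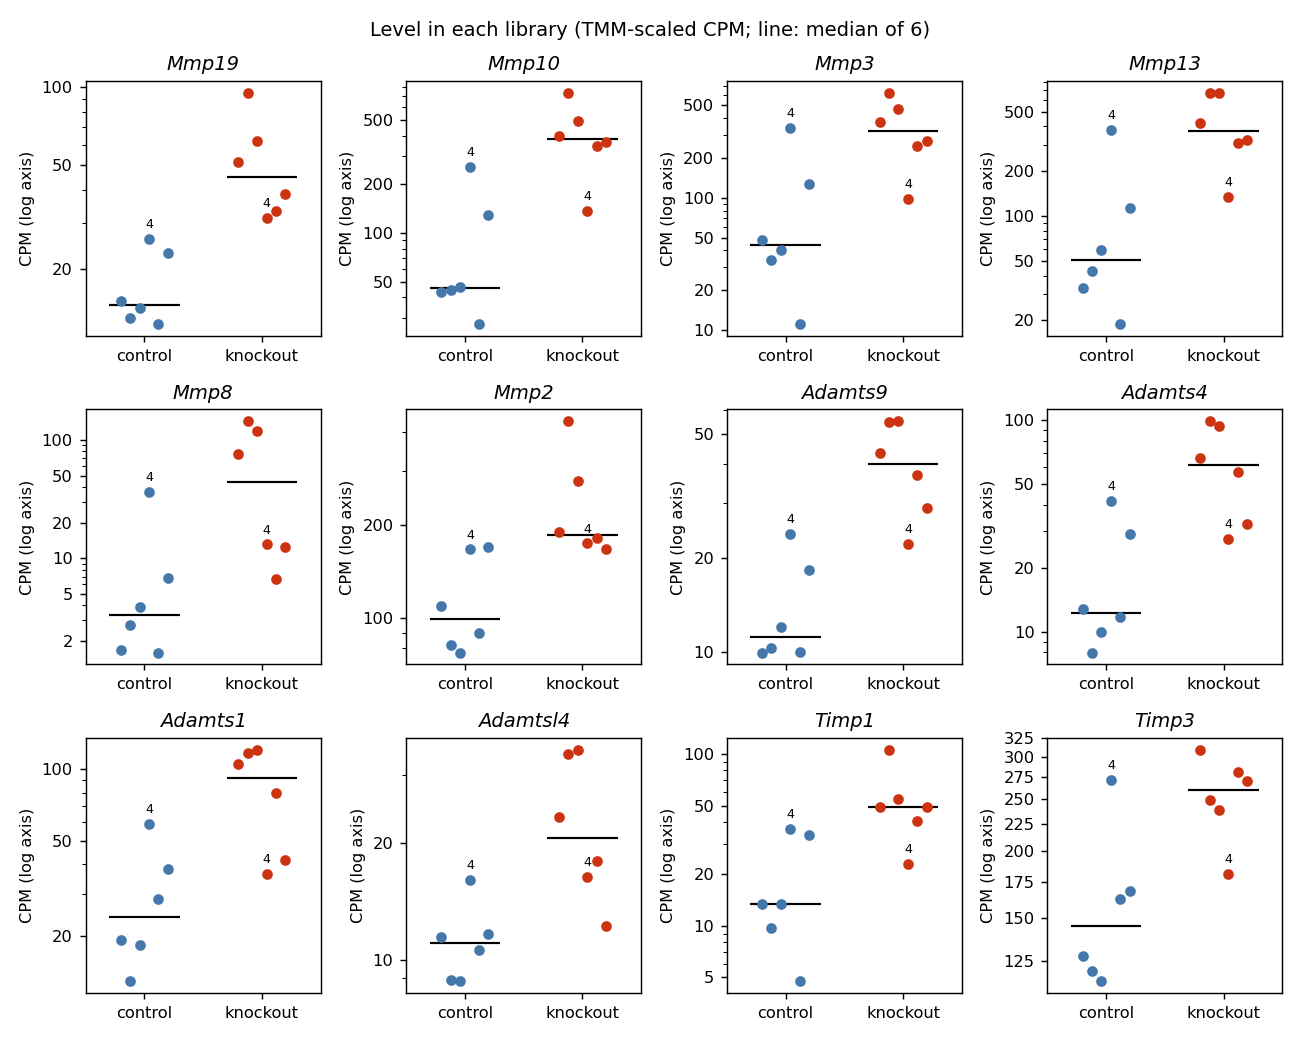
CPM (log axes that differ between panels and do not start at 0) of 12 genes in each of the 6 control and 6 knockout libraries, with the median as a line and replicate 4 of each group marked. The groups are apart for Mmp19, while for Mmp10, Mmp3 and Mmp13 control replicate 4 lies among the knockouts and above knockout replicate 4.

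Leukocyte-associated MMPs were uneven among the knockout libraries. Mmp8, the neutrophil collagenase, stood at 1.58, 3.28 and 36.3 CPM in the controls and 6.64, 44.5 and 144 CPM in the knockouts (log2 fold change 2.82, SE 0.94, edgeR adjusted p = 0.103). Knockout replicates 1, 2 and 3 held 75.9, 144 and 119 CPM, whereas knockout replicates 4, 5 and 6 held 13.1, 6.64 and 12.5 CPM, below control replicate 4. Without control replicate 4, the highest control, the log2 fold change was 4.21 (SE 0.87, edgeR adjusted p = 0.021). With control replicate 1 left out, it was 2.6 (SE 0.99, edgeR adjusted p = 0.179). The summed level of 10 neutrophil markers moved with Mmp8. It was 623, 1130 and 1240 CPM in knockout replicates 1, 2 and 3, and 257 to 271 CPM in the other knockouts. In control replicate 4 it was 558 CPM, and in the other controls 133 to 228 CPM. Of the 8 tested neutrophil markers 6 were higher at an unadjusted edgeR p under 0.05. The receptor genes Cxcr2 (log2 fold change 0.93, SE 0.61) and Csf3r (0.50, SE 0.41) were not. None of the 10 markers was at 0 throughout, and their part in the result was not tested. Mmp9 (gelatinase B), stored in neutrophil granules and made by macrophages, was at 6.45, 11.5 and 46.2 CPM against 11.5, 35.4 and 91.2 CPM (control against knockout; log2 fold change 1.18, SE 0.53). Mmp25, a membrane-anchored leukocyte MMP, had a log2 fold change of 0.93 with an SE of 0.40. Mmp12, the macrophage elastase, was at 4.20, 5.72 and 21.4 CPM in the controls and 8.53, 20.3 and 32.0 CPM in the knockouts, where control replicate 6 lay above the knockout median (log2 fold change 1.24, SE 0.43). Without control replicate 6, the highest control, it was 1.77 (SE 0.33, edgeR adjusted p = 0.0493). With control replicate 1 left out, it was 1.14 (SE 0.46, edgeR adjusted p = 0.195). The 10 monocyte and macrophage markers summed to between 450 and 754 CPM in the controls and between 663 and 1100 CPM in the knockouts, with 5 of 10 higher at an unadjusted edgeR p under 0.05 and none at 0 throughout. Their part was not tested.

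Mmp2 (gelatinase A) and its membrane activator Mmp14 (MT1-MMP), both typical of fibroblasts, differed less but varied less between libraries. Mmp2 was at 77.3, 99.6 and 171 CPM in the controls and 167, 186 and 435 CPM in the knockouts. Its log2 fold change was 1.03 (SE 0.28, edgeR adjusted p = 0.0638). The edgeR adjusted p was 0.0341 without control replicate 4, 0.0376 without knockout replicate 4 and 0.128 without control replicate 1. Mmp14 was at 133, 142 and 198 CPM and 173, 204 and 327 CPM, with a log2 fold change of 0.51 (SE 0.17, edgeR adjusted p = 0.0967). The remaining membrane-type genes stayed near 0: Mmp15 stood at -0.10 with an SE of 0.13 (edgeR adjusted p = 0.711), Mmp17 at 0.09 with 0.15, Mmp16 at 0.28 with 0.33 and Mmp24 at 0.07 with 0.40. Mmp15 (MT2-MMP), the most abundant of these 4, was at 127, 154 and 171 CPM in the controls and 114, 133 and 198 CPM in the knockouts, with knockout replicate 4 the highest of all. Mmp28 (epilysin) and Mmp23 had log2 fold changes of 0.18 with SEs of 0.12 and 0.24. Fibroblast markers were higher too: 8 genes summed to between 753 and 1730 CPM in the controls and between 1290 and 2620 CPM in the knockouts, 6 of 8 were higher at an unadjusted edgeR p under 0.05, and none was at 0 throughout. Their part in the values of Mmp2, Mmp14 and the genes that follow was not tested.

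Of the 6 tested ADAMTS genes whose products cleave versican and related proteoglycans, 4 were higher at an unadjusted edgeR p under 0.05. Adamts9 stood at 9.92, 11.2 and 23.9 CPM in the controls and 22.2, 40.2 and 55.1 CPM in the knockouts (log2 fold change 1.52, SE 0.28, edgeR adjusted p = 0.0512). Its groups overlapped only because knockout replicate 4 lay just under control replicate 4. Adamts4 (aggrecanase-1), which is induced by inflammatory cytokines, was at 7.96, 12.3 and 41.7 CPM and 27.6, 61.8 and 99.4 CPM (log2 fold change 1.74, SE 0.44, edgeR adjusted p = 0.0612). Adamts1, the most abundant ADAMTS transcript, was at 13.0, 24.1 and 59.1 CPM and 36.5, 92.5 and 121 CPM (log2 fold change 1.5, SE 0.39, edgeR adjusted p = 0.0615). For both genes knockout replicates 4 and 6 lay below control replicate 4. Without control replicate 4 the edgeR adjusted p was 0.011 for Adamts9, 0.0178 for Adamts4 and 0.02 for Adamts1, and without knockout replicate 4 it was 0.0197, 0.028 and 0.0274. Without control replicate 6 it was 0.0493 for Adamts9. With control replicate 1 left out, the edgeR adjusted p was 0.123 for Adamts9 and 0.127 for both Adamts4 and Adamts1. Adamts15 (0.68, SE 0.27) and Adamts5 (0.75, SE 0.36) had smaller log2 fold changes, and their groups overlapped. Adamts8 was at 2.95, 3.34 and 4.25 CPM in the controls and 1.91, 3.32 and 4.51 CPM in the knockouts (log2 fold change -0.04, SE 0.20, edgeR adjusted p = 0.928). Their shared substrate versican (Vcan) was at 32.3, 37.4 and 112 CPM in the controls and 72.2, 130 and 146 CPM in the knockouts, a log2 fold change of 1.04 (SE 0.33, edgeR adjusted p = 0.0858).

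Procollagen N-proteinases, which trim the amino end of fibrillar procollagens, were all higher at an unadjusted p under 0.05. Besides Adamts14, Adamts3 had a log2 fold change of 1.19 (SE 0.30) and the more abundant Adamts2 one of 0.68 (SE 0.22), at 19.2, 26.1 and 34.1 CPM in the controls and 31.3, 39.1 and 74.6 CPM in the knockouts. Adamts7 (1.05, SE 0.32) and Adamts12 (0.79, SE 0.24), which cleave cartilage oligomeric matrix protein, and Adamts19 (0.58, SE 0.26) were likewise above 0. Adamts10, a fibrillin-binding proteinase, was at 5.05, 6.81 and 8.77 CPM in the controls and 4.94, 5.85 and 6.85 CPM in the knockouts (log2 fold change -0.21, SE 0.15, edgeR adjusted p = 0.425). Adamts17 was at 2.47, 2.96 and 4.19 CPM and 1.09, 2.9 and 4 CPM (log2 fold change -0.14, SE 0.26, edgeR adjusted p = 0.799). These groups overlapped, as did those of Adamts6 (0.05, SE 0.27). Of the ADAMTS-like genes, Adamtsl4 was at 8.83, 11.1 and 16.1 CPM in the controls and 12.2, 20.6 and 34.8 CPM in the knockouts (log2 fold change 1.03, SE 0.25, edgeR adjusted p = 0.0577). Adamtsl2, whose product binds fibrillin and a latent TGF-beta binding protein, was at 2.37, 4.41 and 7.87 CPM and 5.01, 11.8 and 25.8 CPM (log2 fold change 1.61, SE 0.43, edgeR adjusted p = 0.0636). Without control replicate 4 the edgeR adjusted p was 0.0246 for Adamtsl4 and 0.0323 for Adamtsl2, and without knockout replicate 4 it was 0.028 and 0.0427. Adamts3 was called in each of these settings, and Adamts7 and Adamts12 without knockout replicate 4. With control replicate 1 left out, the edgeR adjusted p was 0.124 for Adamtsl4 and 0.128 for Adamtsl2. Adamtsl1 was at 0.66 with an SE of 0.27, and Adamtsl3 at 0.11 with 0.22. Adamtsl5 was at 1.67, 2.27 and 3.35 CPM in the controls and 1.33, 2.47 and 3.43 CPM in the knockouts, with a log2 fold change of -0.01 (SE 0.27, edgeR adjusted p = 0.989).

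Of the 4 inhibitor genes, 3 were higher at an unadjusted edgeR p under 0.05. Timp1, the inducible inhibitor, was at 4.75, 13.4 and 36.4 CPM in the controls and 22.9, 48.9 and 106 CPM in the knockouts (log2 fold change 1.53, SE 0.46, edgeR adjusted p = 0.0808). Control replicates 4 and 6 lay above knockout replicate 4 and below the other knockouts. Timp3, which is bound to the matrix and also inhibits ADAM17 and the aggrecanases, was at 115, 145 and 271 CPM and 182, 260 and 309 CPM (log2 fold change 0.67, SE 0.20, edgeR adjusted p = 0.0816). Timp2, which takes part in proMMP2 activation by MT1-MMP, was at 99.7, 131 and 185 CPM and 153, 161 and 299 CPM (log2 fold change 0.51, SE 0.19, edgeR adjusted p = 0.137). Without control replicate 4 the edgeR adjusted p was 0.0372 for Timp1 and 0.0146 for Timp3, and without knockout replicate 4 it was 0.0405 and 0.0402. With control replicate 1 left out, it was 0.154 for Timp1 and 0.157 for Timp3. Timp4 was scarce, at 0.70, 0.98 and 1.58 CPM and 0.37, 1.08 and 1.65 CPM, with a log2 fold change of -0.04 (SE 0.31, edgeR adjusted p = 0.956).

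Per unit of gene length, 3 genes made up most MMP transcript in every knockout except replicate 4, and also in control replicate 4. Mmp10 was at 453 ± 223 TPM, Mmp3 at 364 ± 195 and Mmp13 at 296 ± 144 TPM in the knockout, against 96.9 ± 96.5, 102 ± 128 and 74.2 ± 96.5 TPM in the control (SD, n = 6). The next in the knockout were Mmp14 at 162 ± 45.3 and Mmp2 at 147 ± 67.0 TPM, and in the control Mmp14, at 111 ± 21.6 TPM, was the highest of all. These neighbours lie within 1 SD of each other. That SD is the spread between libraries, and the genes were measured in the same libraries, so it does not decide their order. The order within libraries was not tested. Mmp3, Mmp10 and Mmp13 together held 46.6% to 70.5% of the summed MMP TPM in the knockouts (median 68.9%) and 16.8% to 68.4% in the controls (median 32.2%), the highest control being replicate 4. Among the inhibitors Timp1, at 119 ± 64.9 TPM, stood beside Timp3 (102 ± 20.2) and Timp2 (96.2 ± 30.7) in the knockout. In the control it was at 39.3 ± 28.3 TPM against 61.8 ± 23.9 and 64.7 ± 14.7 TPM. The highest ADAMTS levels were those of Adamts1, at 32.3 ± 13.8 against 11.1 ± 6.57 TPM, and Adamts4, at 26.9 ± 12.5 against 7.90 ± 5.76 TPM (knockout against control).

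Proteinase and inhibitor transcripts were high in the same libraries. Summed MMP TPM was 295, 402 and 1310 in the controls (lowest, median, highest) and 730, 1510 and 2920 in the knockouts. Summed TIMP TPM was 118, 137 and 262 in the controls and 201, 300 and 504 in the knockouts. The ratio of the sums was 2.24, 3.06 and 5 in the controls and 3.62, 4.84 and 6.61 in the knockouts. Control replicate 4, at 5, was above the knockout median and the remaining controls were at or below 3.25, under every knockout. These are transcript ratios, and no test was made of them.

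**Figure D3:**
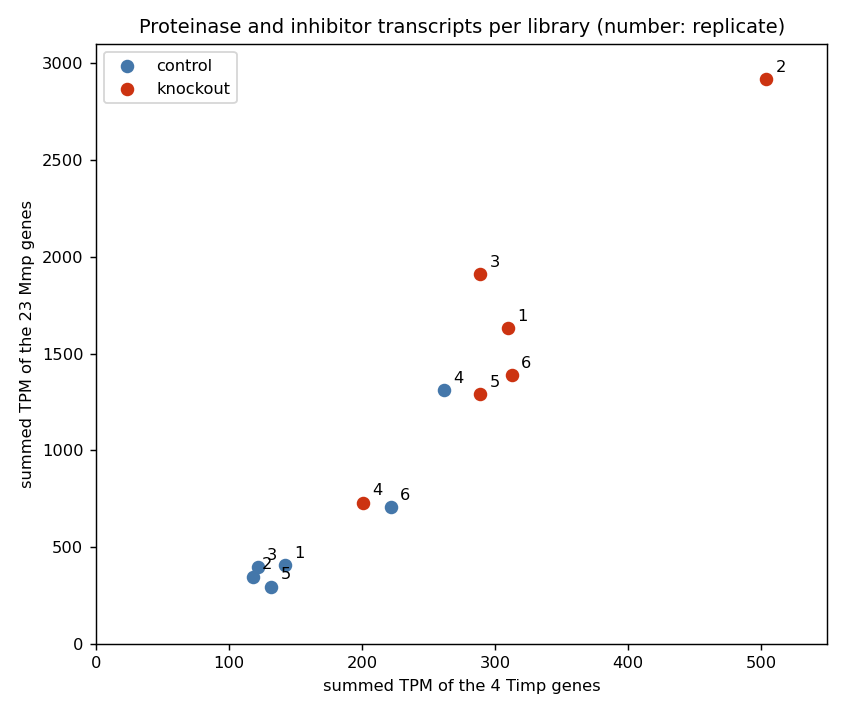
Summed TPM of the 23 Mmp genes (y axis) against that of the 4 Timp genes (x axis) in each library, with replicate numbers. Control replicates 1, 2, 3 and 5 lie lowest on both axes, control replicate 4 lies among the knockouts, and knockout replicate 2 is highest on both, at 2920 and 504 TPM.

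A few libraries held the extremes for the 26 genes higher at an unadjusted p under 0.05, a choice that itself bears on these counts. Of the 26, control replicate 4 was the highest control for 19 and replicate 6 for the other 7. Knockout replicate 2 was the highest knockout for 21, and knockout replicate 4 the lowest for 17. For all 26, every knockout lay above the control median, and for 19 of them knockout replicate 4 lay below control replicate 4. In the other 16 tested genes control replicate 4 was the highest control for 1, and knockout replicate 4 the lowest knockout for 4. Over all 42, control replicate 4 was the highest control for 20, replicate 6 for 10, replicate 5 for 5, replicate 3 for 4 and replicate 1 for 3, and knockout replicate 4 was the lowest knockout for 21. The spread within a genotype differed widely between genes: the pooled SD of log2 CPM was 1.79 for Mmp8, 1.37 for Mmp3 and 1.24 for Mmp13, but 0.54 for Mmp19, 0.31 for Mmp14 and 0.24 for Mmp15.

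**Figure D4:**
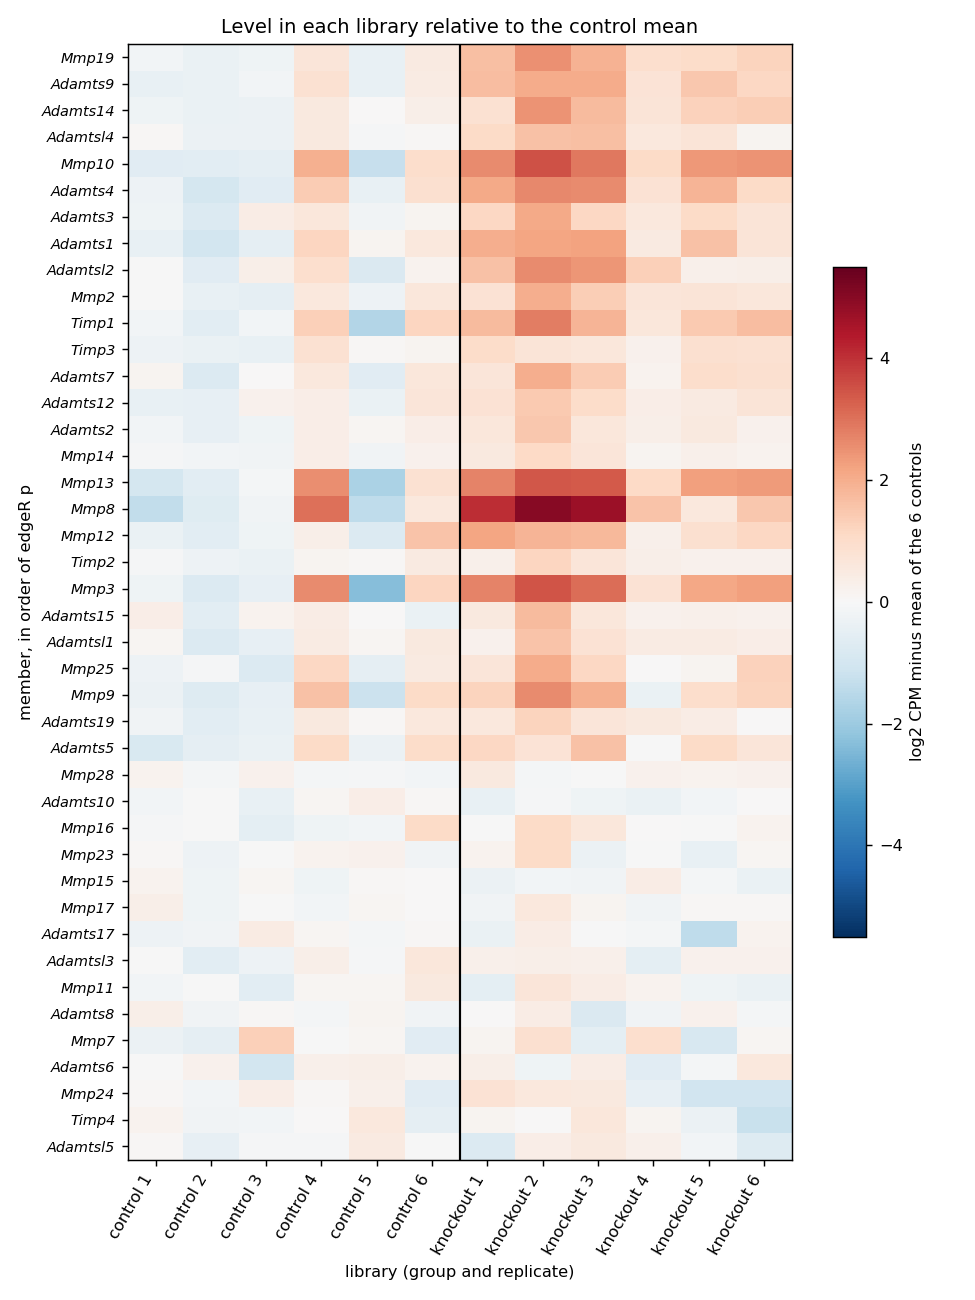
Log2 CPM of the 42 tested genes (rows, in order of edgeR p) in each library (columns) minus the mean of the 6 controls. Control replicate 4 is red in many of the upper rows, knockout replicates 1, 2 and 3 are darkest for Mmp8, Mmp13, Mmp10 and Mmp3, and the lower rows show no division by genotype.

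The 9 genes below the low-count filter were Adamts13, Adamts16, Adamts18, Adamts20, Mmp1a, Mmp1b, Mmp20, Mmp21 and Mmp27, none of which exceeded 16 counts in any library. Mmp21 had 0 counts in all. Adamts16 was named after its values were seen: it had 5 to 15 counts in each control (61 in total) and 8 in the knockouts, 7 of them in knockout replicate 4, 1 in replicate 1 and 0 in the other 4. Its level was 0.594 ± 0.224 CPM in the control and 0.0739 ± 0.152 CPM in the knockout (SD, n = 6; exact two-sided permutation p = 0.00649). It was the only one of the 50 members with a count to be lower at an unadjusted edgeR p under 0.05 without the filter (log2 fold change -2.79, SE 0.75, edgeR adjusted p = 0.0696), and it is the member that the authors' deposited table lists as lower. Mmp1b, also named after its values were seen, had 1 count in the controls and 19 in the knockouts (exact two-sided permutation p = 0.0152), and reads of this gene and its close copy Mmp1a may have been split between them.

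Other genes of matrix turnover, from lists drawn up for this purpose, were mostly above 0 as well. Of 30 tested partner genes 18 were higher at an unadjusted edgeR p under 0.05 and 0 lower, and 0 passed the adjusted threshold. Over all tested genes 13.1% were higher and 9.48% lower at that p, and 0.0556% passed the adjusted threshold. Plasminogen activation, which feeds proMMP cleavage, had 5 of 5 tested genes under that p with a median log2 fold change of 1.61. Its smallest p belonged to the protease inhibitor Serpine2 (1.61, SE 0.36) and the urokinase receptor Plaur (1.21, SE 0.29). Among other inhibitors and clearance receptors 3 of 5 were higher, led by papilin (Papln, 1.76, SE 0.41) and the scavenger receptor Lrp1 (0.85, SE 0.23). Of 11 further metalloproteinases 6 were higher, led by procollagen C-proteinase Bmp1 (0.95, SE 0.25) and the leukocyte gene Adam8 (1.64, SE 0.44). Of the other lists, 3 of 5 cathepsins were higher (Ctsk at 0.76, SE 0.23, and Ctsl at 0.58, SE 0.20), and 1 of 4 proprotein convertases, Furin (0.40, SE 0.13), with Pcsk5 next at 0.33 (SE 0.15).

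Substrate genes were higher at an unadjusted edgeR p under 0.05 in 10 of 12 tested, with a median log2 fold change of 0.65. At that p 13.1% of all tested genes were higher. Tenascin-C (Tnc), a repair-associated matrix protein, was at 132, 187 and 293 CPM in the controls and 265, 480 and 847 CPM in the knockouts (log2 fold change 1.32, SE 0.26, edgeR adjusted p = 0.0512), and von Willebrand factor (Vwf), the substrate of Adamts13, had a log2 fold change of 0.80 (SE 0.19). Aggrecan (Acan) had no counts. Of 13 genes for known MMP inducers, 9 were higher and 0 lower at that p, with a median of 0.68, against 13.1% and 9.48% of all tested genes. Il1a, which induces stromelysins in fibroblasts, was at 1.89, 4.54 and 15.4 CPM in the controls and 14.6, 31.2 and 86.2 CPM in the knockouts (log2 fold change 2.54, SE 0.52, edgeR adjusted p = 0.0531), and Tgfb1 was at 0.68 (SE 0.18). AP-1 genes were uneven: Fosl2 stood at 0.31 (SE 0.09), Junb at 0.45 (SE 0.15), Fosl1 at 1.01 (SE 0.43), Jun at 0.19 (SE 0.09) and Fos at -0.22 (SE 0.18).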

How the data were processed

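Colon tissue RNA for 12 libraries was extracted with Trizol and made into libraries with a SMARTER mRNA kit, per the labels' protocols. The authors deposited 1 table with, per the file headers, raw read counts and TPM per gene and library. It also holds mean TPM per group, their log2 fold change, and a p-value with its adjusted value, which the authors deposited without naming a test. The submitters' processing notes list GRCm38, mm10 and mm39 without roles; aligner, counter and use of strand were not given in the sources used here, so no gene coordinates are given beside the values. Groups and replicate numbers come from the labels. The table held 0 columns from outside the series, and no 2 libraries agreed within counting noise.

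Counts were fitted on the whole table in R 4.3.3 with edgeR 4.0.16 (filterByExpr, minimum count 10 and total 15; TMM; glmQLFit and glmQLFTest; no covariate; Benjamini-Hochberg over 14393 genes; threshold 0.05). All 42 members that passed the filter reached its level in libraries of both groups. SEs were derived from the fold change and F, and all tests are two-sided. Alternatives used DESeq2 1.42.0, limma 3.58.1 (voom, and trend on log2(TPM + 1) and log2(TPM + 0.1)), other scalings and filters, robust fitting, a replicate block and single libraries left out. The fits were tested on 1 simulated data set, where the share of false calls was under the threshold for edgeR and limma and over it for DESeq2. Its genes were drawn independently, with no library shifted in many genes at once, so it does not measure false calls in these data. Library totals set the counting error.

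The members, lists and tests were chosen with earlier results of these data known. Full values were given by rule to the 6 members with the smallest p in each direction, the 2 of highest TPM per family and the Timp genes. From each further list the 2 genes with the smallest p were named. Other members with full values, and other list genes named, were chosen after their values were seen. Promoter sequences are from RefSeq (GRCm38.p6).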

Additional observations from a re-analysis of the deposited data

Results flagged for a closer look

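In each group of 6, a library was looked at again when its gap to the nearest other value, on the log2 CPM scale, took up an unusually large part of the group's range (Dixon's test at 95%). Of 84 groups (42 genes in each genotype) 7 met this, where chance gives about 1 in 20. Knockout replicate 2 was the highest knockout for Adamts2, at 74.6 CPM with the next at 41.0, and for Adamts15, at 58.7 with the next at 27.6. Knockout replicate 4 was the highest knockout for Mmp15, at 198 CPM with the next at 139, and the lowest for Adamtsl3, at 2.82 with the next at 4.94. Control replicate 6 was the highest control for Mmp16, at 2.16 CPM with the next at 0.946. Control replicate 3 was the highest control for Mmp7, at 10 CPM with the next at 4.26, and the lowest for Adamts6, at 0.975 with the next at 2.03.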

How the results depend on the processing

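The median log2 fold change of the tested genes stayed positive in all 24 alternatives, between 0.52 and 0.90. The number higher at an unadjusted p under 0.05 ran from 20 to 27, the lowest with the replicate block. The count past the adjusted threshold, 0 at first, was 2 with DESeq2's size factors, 2 with robust fitting, 2 with limma voom, 4 with library size only, 9 with limma-trend on log2(TPM + 1), 10 with a pseudocount of 0.1 instead, and 19 with DESeq2. It was 22 without both replicates numbered 4, and between 0 and 15 with single libraries left out. It stayed 0 with upper quartile scaling, no low-count filter, a mean CPM of at least 1 and the replicate block. Same-numbered libraries did not deviate together: their correlations were -0.5, -0.2, 0.08, -0.41, 0.05 and -0.44 for numbers 1 to 6 (0 of 6 over 0.1). This gave no sign of pairing by number but cannot exclude it, because the labels do not say what the numbers stand for. The cause of these shifts was not tested. Log2 fold changes near 0 changed sign. Mmp7 was at -0.14 without both replicates numbered 4, and ran from -0.10 to 0.50 with single libraries left out. Adamtsl5 was at 0.00 with DESeq2's size factors, upper quartile scaling and DESeq2, 0.01 without the filter, 0.03 with library size only, and 0.08 and 0.11 on the TPM scales. Adamts8 was at 0.01 with library size only. On the 2 TPM scales Adamts17 was at 0.16 and 0.22 and Timp4 at 0.03 and 0.07. With single libraries left out Adamtsl5 ran from -0.15 to 0.11, Adamts8 from -0.15 to 0.07, Adamts17 from -0.27 to 0.03 and Timp4 from -0.23 to 0.13. Depth limits the 9 genes with no more than 16 counts in a library.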
